A study of Mus musculus with 19 samples.

Results

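The genes described here make up a module of 32 cell cycle genes, chosen by symbol from the probe annotation of the array and read by the brightest probe set of each gene. Of these, 31 were read, 13 that act in DNA replication and 18 that act in mitosis, out of 17360 genes read in the same way. Ccnb1, the gene for cyclin B1, was not analysed here because no probe set carried its symbol alone. RNA came from the urogenital sinus epithelium (UGE, 6 samples), the urogenital sinus mesenchyme (UGM, 5 samples), the epidermis (4 samples) and the dermis (4 samples) of untreated C57BL/6 mouse embryos at embryonic day 16, and each sample was hybridised to 1 Affymetrix MOE430 2.0 array. The urogenital sinus is the embryonic structure from which the prostate grows, and its 2 layers were parted with trypsin, whereas back skin was parted after a night in Dispase. Site and method of separation therefore cannot be told apart in any comparison between the urogenital sinus and skin. Each sample pooled tissue of several embryos, so the p-values measure the spread between pools.

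A dividing cell first copies its DNA and then parts the copies. E2F factors switch on cyclin E and the replication genes, the MCM helicase is loaded on DNA and unwinds it, and ribonucleotide reductase and thymidylate synthase supply nucleotides. Mitosis genes peak later, when cyclin B with Cdk1, the Aurora and Polo kinases, kinesin motors and the anaphase-promoting complex build the spindle and release the chromosomes, and many of them are held off earlier in the cycle by the DREAM complex, which binds their promoters at the CHR element. In embryonic skin, dividing cells lie both in the basal layer of the epidermis and in the dermis.

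All values are log2 of the deposited intensity, and no library depth exists for an array, so that the number of arrays limits the precision. A gene was called where its limma adjusted p, over 41549 probe sets, was under 0.01 and its change was over 2-fold. Changes of most members were under 2-fold, and counts by adjusted p alone are therefore given beside these calls. "Higher", "lower", "rose" and "fell" are used of single genes below where the adjusted p was under 0.01.

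The layers were not pure by their markers. Col3a1, a mesenchymal collagen, ranged from 14.42 to 14.95 in UGM and dermis, from 12.77 to 13.68 in epidermis and from 8.56 to 12.23 in UGE. Over 24 mesenchymal markers the median level was 9.82 and 9.88 in UGE replicates 2 and 3, against 6.21 to 7.73 in the other 4 UGE samples. Dermis in turn carried epidermal transcripts, with Krt14 at 12.51 to 13.28 and a median over 25 epithelial markers of 7.96 to 10.06, against 6.57 to 7.79 in UGM. Markers of endothelium, with 10 genes and a median of 9.03 to 9.36, of macrophages, with 10 genes and 9.01 to 9.21, and of skeletal muscle, with 10 genes and 9.60 to 10.72, were also higher in each dermis sample than in any sample of the other tissues. The part of these cells in the results was not tested.

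Dermis stood highest for nearly all members. Its mean was the highest of the 4 tissues for 29 of the 31 members, including all 18 mitosis members, against 23.9% of all genes. The exceptions were Mcm4, highest in UGM, and Tyms, highest in UGE. For 14 members, 7 of each class, every dermis sample lay above each of the 15 other samples, against 6.09% of all genes. In these pooled tissues, more dividing cells and more transcript per cell cannot be told apart.

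The lowest tissue differed between the classes. UGE had the lowest mean for 17 of 18 mitosis members but for 5 of 13 replication members (Ccne2, Pcna, Rrm1, Rrm2 and E2f1), and it was the lowest tissue for 24.7% of all genes. Epidermis had the lowest mean for 7 replication members, which were Ccne1 and Mcm2 to Mcm7, for 1 mitosis member, Bub1b, and for 24.9% of all genes. Without UGE replicates 2 and 3, UGE was lowest for 15 mitosis and 4 replication members and epidermis for 3 and 8.

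**Figure D1:**
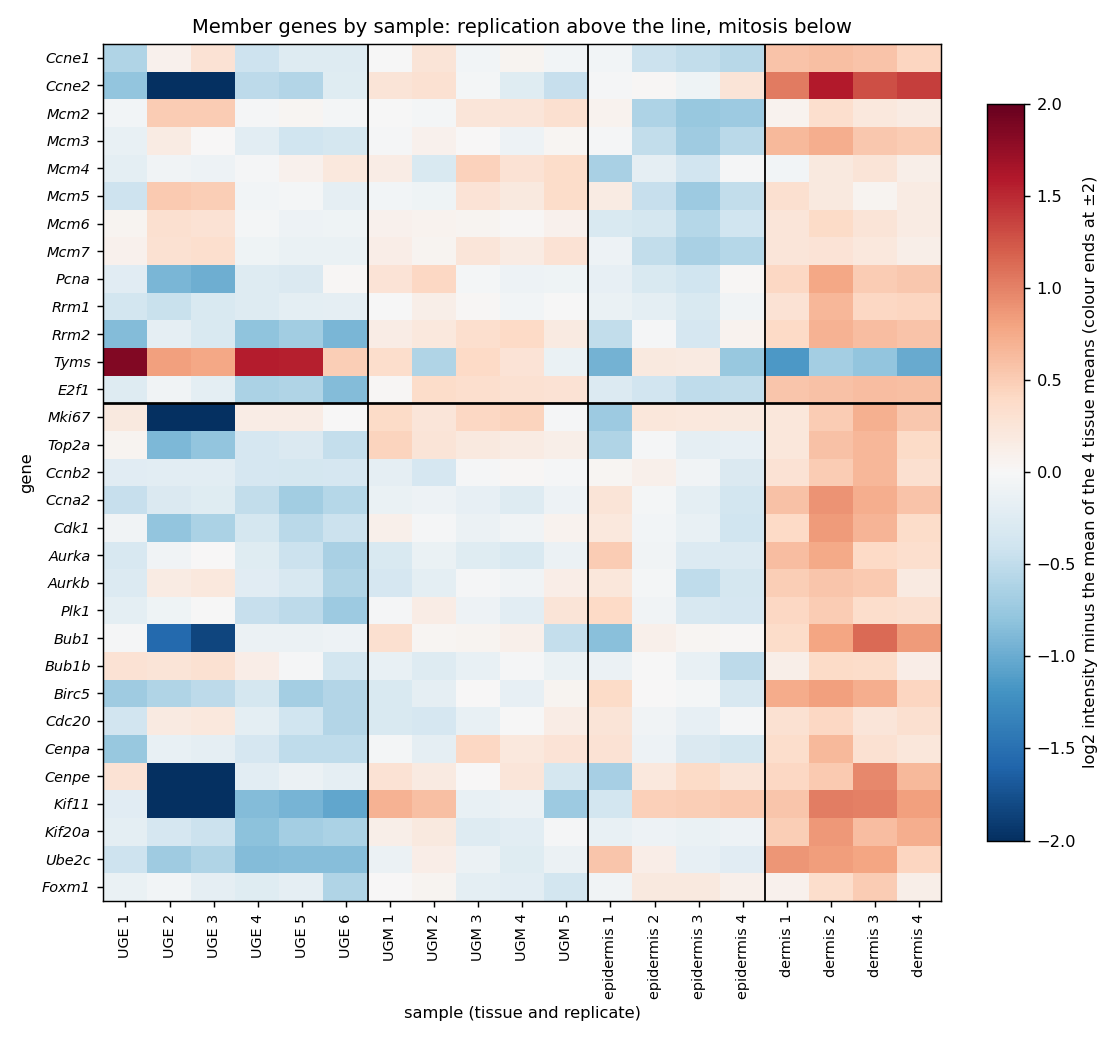
Each row is a member gene and each column a sample; the colour gives log2 intensity minus the mean of the 4 tissue means of that gene, from blue (lower) to red (higher), and ends at 2 on either side. The dermis columns are red for nearly every gene, the UGE columns are blue for most mitosis genes, and UGE replicates 2 and 3 hold dark blue cells for Ccne2, Mki67, Cenpe, Kif11 and Bub1.

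To compare the classes, each gene was centred on the mean of its 4 tissue means and averaged over the class in each sample. The replication level was -0.15 ± 0.02 (SD, n = 6) in UGE, 0.11 ± 0.04 (n = 5) in UGM, -0.32 ± 0.09 (n = 4) in epidermis and 0.36 ± 0.09 (n = 4) in dermis. The mitosis level was -0.46 ± 0.18 in UGE, -0.02 ± 0.04 in UGM, -0.05 ± 0.08 in epidermis and 0.53 ± 0.13 in dermis. Mitosis was lower in each UGE sample than in any epidermis sample, also after quantile normalization and with the mean of all probe sets of each gene. Replication was lower in each epidermis sample than in any UGE sample by the brightest probe sets, but not under either alternative. After quantile normalization epidermis ran from -0.43 to -0.21 and met the lowest UGE sample at -0.21, and with the mean of the probe sets epidermis ran from -0.44 to -0.09, with a mean of -0.25, and UGE from -0.27 to -0.18, with a mean of -0.22. The replication level minus the mitosis level was above 0 in all 11 urogenital sinus samples, from 0.05 to 0.51 in UGE and from 0.06 to 0.21 in UGM. It was below 0 in all 8 skin samples, from -0.37 to -0.18 in epidermis and from -0.27 to -0.11 in dermis. With the mean of the probe sets the ranges of this difference met, from -0.07 to 0.37 in UGE and from -0.14 to 0.04 in dermis. By the centring, the 4 tissue means of this difference average to 0, so tissues on both sides of 0 were fixed in advance. Tyms, a dim gene, ran against most replication members by its brightest probe set, with means of 7.45 in UGE, 6.33 in UGM, 5.94 in epidermis and 5.37 in dermis. A second Tyms probe set, with a mean of 6.18, was instead below dermis in epidermis (-0.59 ± 0.19) and in UGM (-0.20 ± 0.18), and neither passed. It kept UGE above UGM (0.42 ± 0.15) and above epidermis (0.82 ± 0.17). The signs of the class difference include Tyms, and whether they hold without it was not tested. No p-value is given for these levels, because the members were chosen with results of these data known.

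**Figure D2:**
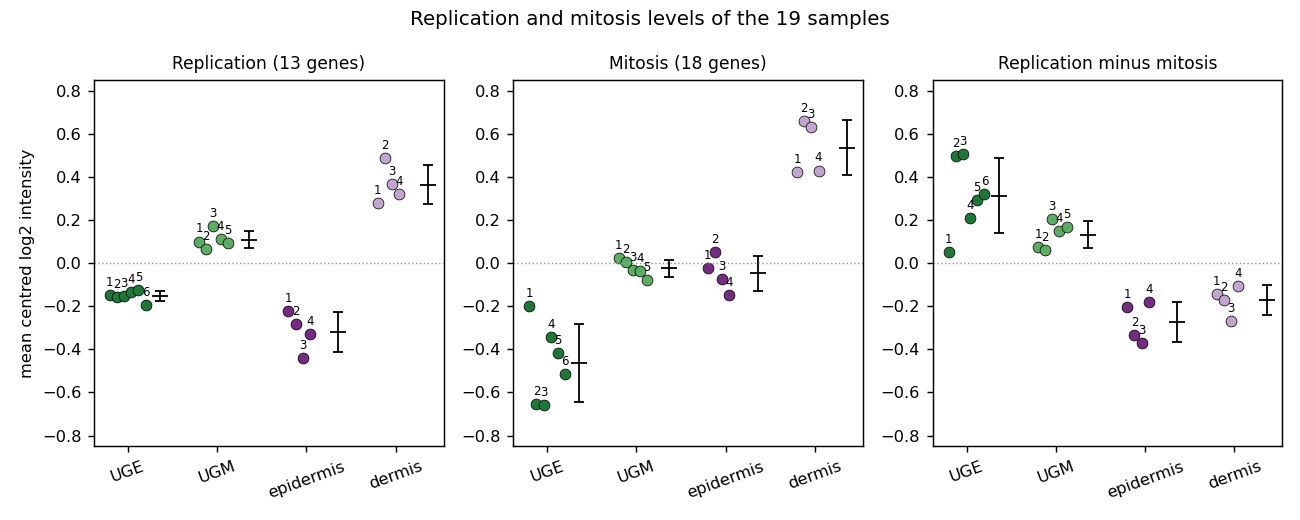
Points are samples, numbered by replicate, in the 4 tissues; the vertical axes give the mean centred log2 intensity over 13 replication genes, over 18 mitosis genes, and the difference of both, with the mean ± SD of each tissue beside the points. Dermis is highest in the first 2 panels, the lowest tissue changes from epidermis (replication) to UGE (mitosis), and in the right panel all UGE and UGM points lie above 0 and all skin points below it.

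The promoters of the classes differed in the letters they held. Windows from 250 bases before to 50 after the transcription start (RefSeq, GRCm38.p6) were at hand for 25 of the 31 members and were searched on both strands for 3 motif groups. The E2F-type letters searched were TTCCCGC and its variants, spelled TTCGCGC in the first case, TTGGCGC in the next and finally TTGCCGC, the CHR letters were TTTGAA and the variant spelled TTCGAA, and the last motif was CCAAT. E2F-type letters occurred in 6 of 11 replication windows (54.5%: Mcm3, Mcm5, Mcm6, Mcm7, Rrm1 and Rrm2), in 2 of 14 mitosis windows (14.3%: Mki67 and Cdk1) and in 9.69% of 27025 windows of all genes. CHR letters occurred in 2 of 11 replication windows (18.2%), in 12 of 14 mitosis windows (85.7%, all but Cenpe and Birc5) and in 19.4% of all windows. CCAAT was found in 72.7%, 92.9% and 37.9% of these windows. Matches of 1 group overlapped each other in 5 windows, those of Mcm3, Mcm5, Mcm6, Mcm7 and Ube2c, and matches of different groups overlapped in 1, that of Mcm7. The windows of E2f1, Tyms, Ccne1 and Birc5 held none of the letters, which says only that these letters are not in these windows. A match describes the sequence and is no evidence of binding in these tissues. The 120 bases before the start are given for 2 replication and 2 mitosis members whose levels differed between UGE and another tissue or between the mesenchymes, Mcm6 (chr1:128359706-128359825, minus strand), Rrm1 (chr7:102441575-102441694, plus strand), Kif11 (chr19:37376262-37376381, plus strand) and Ube2c (chr2:164769809-164769928, plus strand). They run 5′ to 3′ along the gene, with matched letters of the 3 motif groups, on either strand, in capitals.
Mcm6: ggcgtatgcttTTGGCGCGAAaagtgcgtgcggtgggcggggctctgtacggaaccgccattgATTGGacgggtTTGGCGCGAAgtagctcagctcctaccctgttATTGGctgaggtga
Rrm1: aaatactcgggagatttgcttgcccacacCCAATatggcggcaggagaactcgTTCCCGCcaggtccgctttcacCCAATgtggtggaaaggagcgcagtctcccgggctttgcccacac
Kif11: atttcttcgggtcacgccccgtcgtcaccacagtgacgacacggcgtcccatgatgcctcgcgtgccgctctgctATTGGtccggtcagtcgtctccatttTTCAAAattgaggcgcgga
Ube2c: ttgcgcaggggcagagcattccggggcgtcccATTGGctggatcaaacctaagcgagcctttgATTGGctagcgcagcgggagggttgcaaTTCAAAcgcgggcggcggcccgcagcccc
Mcm6 holds a pair of runs in which TTGGCGC overlaps an E2F-type match on the other strand, and Kif11 and Ube2c each hold 1 CHR match, shown as TTCAAA, downstream of their CCAAT matches.

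**Figure D3:**
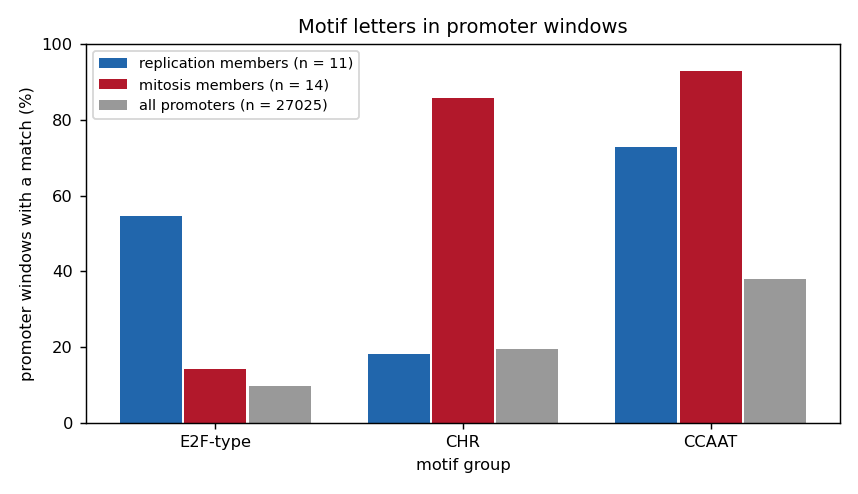
Bars give the percentage of promoter windows with at least 1 match to each motif group, for replication members (n = 11), mitosis members (n = 14) and all genes with a window (n = 27025), on an axis from 0 to 100%. E2F-type letters are commonest in the replication bars and CHR letters in the mitosis bars, where 85.7% of windows hold them.

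UGE was compared with UGM to find which layer of the urogenital sinus held more of each transcript. Tyms was the 1 member called higher in UGE, and no member was called lower. Over all genes 6.75% were called higher and 10.0% lower in UGE. By adjusted p alone 1 member was higher (14.5% of all genes) and 8 were lower (16.0%), 3 of replication and 5 of mitosis. The median difference was -0.20 over the replication members and -0.46 over the mitosis members, against 0.02 over all genes.

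Among replication members, the lower transcripts were Rrm2, Rrm1 and E2f1. Rrm2, the regulated subunit of ribonucleotide reductase, measured 10.53, 10.69 and 11.26 (lowest, median and highest) in UGE and 11.58, 11.65, 11.77, 11.83 and 11.62 in UGM. The groups did not overlap, and the difference was -0.88 ± 0.14 (SE, limma adjusted p = 0.000324). Dimmer Rrm2 probe sets gave -0.85 ± 0.17, which passed, and -0.22 ± 0.17, which did not. E2f1, the factor that drives entry into S phase, ran from 6.89 to 7.68 in UGE and from 7.78 to 8.13 in UGM, again without overlap (-0.70 ± 0.14, limma adjusted p = 0.00193). Dimmer E2f1 probe sets gave -0.55 ± 0.18 and 0.01 ± 0.10, and neither passed. Rrm1, the large subunit of the same reductase, differed by -0.30 ± 0.07, and it no longer passed when any 1 of 9 of the 11 samples was left out, all but UGE replicates 5 and 6. None of the 6 MCM genes passed by its brightest probe set, and their differences lay between -0.20 and 0.01, as the plot of member differences shows. A dimmer Mcm4 probe set did pass, at -0.52 ± 0.12 (limma adjusted p = 0.00385). Further probe sets of the other MCM genes ran from -0.45 (Mcm7) to 0.31 (Mcm3) and did not pass.

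Tyms, thymidylate synthase, went the other way at a low level. It ran from 6.77 to 8.12 in UGE, with a median of 7.46, and stood at 6.63, 5.67, 6.67, 6.54 and 6.14 in UGM. Every UGE sample lay above UGM, by 1.12 ± 0.27 on average (limma adjusted p = 0.0057). A dimmer Tyms probe set, with a mean of 6.18, gave 0.42 ± 0.15 and did not pass. The call of Tyms was lost without UGE replicate 1, 4 or 5 and without UGM replicate 2, 4 or 5, 6 of the 11 samples, and without UGE replicate 1 or UGM replicate 5 Kif11 was called lower in its place.

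Among mitosis members, Ube2c, Birc5, Top2a, Cenpa and Cdk1 were lower in UGE. Ube2c, the ubiquitin-conjugating enzyme of the anaphase-promoting complex, ran from 9.92 to 10.38 in UGE, with a median of 10.02, and stood at 10.67, 10.93, 10.68, 10.55 and 10.68 in UGM. The groups did not overlap (-0.62 ± 0.11, limma adjusted p = 0.000513). Birc5 (survivin, of the chromosomal passenger complex) differed by -0.46 ± 0.09, and Top2a, which untangles sister chromatids, by -0.69 ± 0.16. Cenpa, the centromeric histone, differed by -0.55 ± 0.14 and Cdk1, the mitotic kinase, by -0.46 ± 0.12, each with groups that overlapped. Cdk1 no longer passed when any 1 of 10 samples was left out, all but UGE replicate 1, and Cenpa when any 1 of 7 was, all but UGE replicates 2 and 3 and UGM replicates 1 and 2. Top2a no longer passed without UGM replicate 1. For Cenpa a second, dimmer probe set pointed the other way at 0.56 and did not pass.

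The largest differences among mitosis members did not pass, and UGE samples varied for these genes. Kif11, the motor that pushes spindle poles apart, differed by -1.25 ± 0.36 (limma adjusted p = 0.0154). Mki67, the Ki-67 proliferation antigen, was close to UGM in 4 UGE samples, at 12.24 to 12.42 against 12.21 to 12.67, and far below in the other 2, at 9.64 and 9.67. The count by adjusted p was 10 without UGE replicates 2 and 3, where Ccne1, Ccna2 and Kif20a came in and Rrm1 and Cdk1 left, and Rrm2 was then called lower as well. It was 5 without UGE replicate 4 or without UGM replicate 4.

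**Figure D4:**
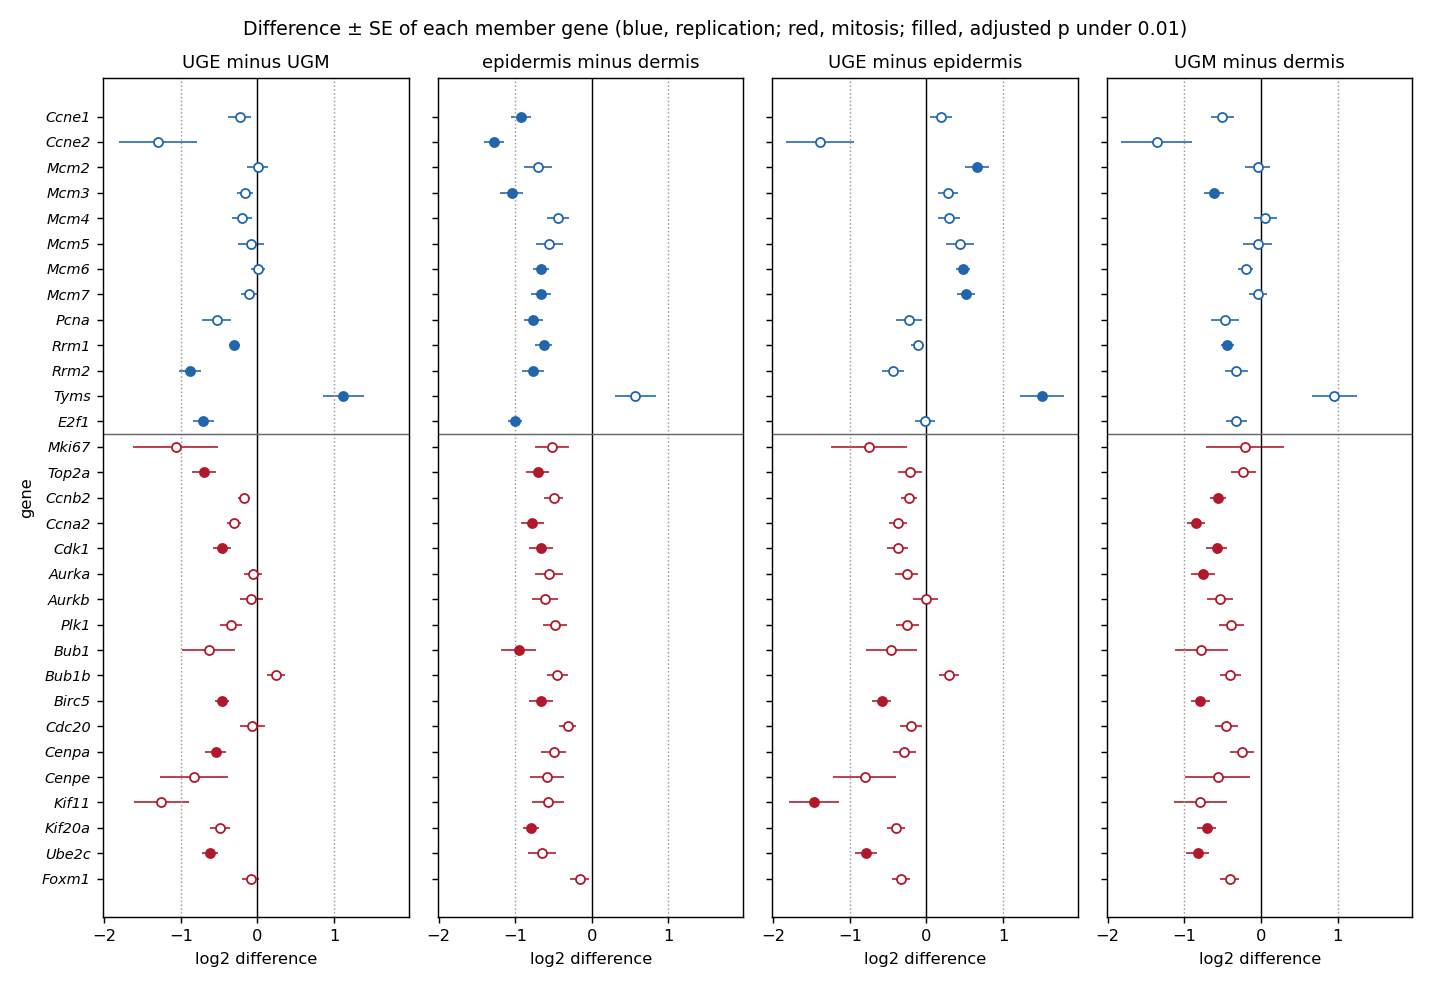
Each row is a member gene, replication in blue above the line and mitosis in red below, and each panel gives the log2 difference ± SE between 2 tissues, with filled points for a limma adjusted p under 0.01 and dotted lines at a 2-fold change. In the panel of UGE minus epidermis the filled blue points lie right of 0 and the filled red points left of it, and in the panel of epidermis minus dermis all 15 filled points lie left of 0.

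Epidermis was compared with dermis as the matching pair of layers from skin. In epidermis 3 members, E2f1, Ccne2 and Mcm3, were called lower and none higher, while 11.1% of all genes were called lower and 5.84% higher. By adjusted p alone 15 members were lower (17.2% of all genes) and none was higher (10.9%). These were 9 of 13 replication members and 6 of 18 mitosis members. The median difference was -0.70 for replication and -0.58 for mitosis, against 0.01 over all genes.

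E2f1 stood at 7.49, 7.37, 7.25 and 7.26 in epidermis and at 8.31, 8.34, 8.37 and 8.36 in dermis, with the dermis samples close together and well above the epidermis. The epidermis level was 49.9% of the dermis level, with an SE of 0.10 on the log2 scale (limma adjusted p = 3.92e-05). Ccne2, cyclin E2, stood at 8.38, 8.42, 8.32 and 8.66 in epidermis and at 9.44, 9.98, 9.69 and 9.78 in dermis (-1.28 ± 0.13, limma adjusted p = 7.22e-05). Ccne1, cyclin E1, fell short of 2-fold at -0.93 ± 0.13 and was read by a probe set that may also bind other transcripts.

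Mcm3, a subunit of the helicase ring, stood at 10.58, 10.10, 9.88 and 10.06 in epidermis and at 11.25, 11.33, 11.13 and 11.10 in dermis. No epidermis sample reached the dermis values, and the difference was -1.05 ± 0.15 (limma adjusted p = 0.000465). Mcm6 (-0.67 ± 0.10) and Mcm7 (-0.67 ± 0.13) were lower too, whereas Mcm2 (-0.70 ± 0.18), Mcm5 (-0.56 ± 0.18) and Mcm4 (-0.44 ± 0.15) did not pass. This split rested on the brightest probe sets. A dimmer probe set passed for Mcm2 (-0.82 ± 0.14) and for Mcm5 (-0.86 ± 0.20), while that of Mcm4 (-0.57 ± 0.16) did not. A further Mcm5 probe set, with a mean of 4.88, gave -0.10 ± 0.17. For Mcm7 1 dimmer probe set did not pass (-0.49 ± 0.15) and its others did. The other replication members that were lower were Pcna, the sliding clamp of the polymerase (-0.77 ± 0.13), Rrm1 (-0.63 ± 0.11) and Rrm2 (-0.77 ± 0.14).

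The mitosis members that were lower in epidermis were Kif20a, a kinesin of cytokinesis (-0.79 ± 0.11), Ccna2, cyclin A2 (-0.78 ± 0.15), Top2a (-0.71 ± 0.15), Birc5 (-0.67 ± 0.16), Cdk1 (-0.67 ± 0.16) and Bub1, a kinase of the spindle checkpoint (-0.95 ± 0.23). Kif20a was the tightest of them, at 9.28 to 9.33 in epidermis and 9.92 to 10.29 in dermis. For Top2a a dimmer probe set was higher in epidermis, by 0.87 ± 0.18 (limma adjusted p = 0.00332), and the mean over its probe sets differed by 0.02.

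These counts rested on single samples. Without epidermis replicate 1 the count by adjusted p was 24, with 4 called, and without dermis replicate 2 it was 9. Without epidermis replicate 3 the number called was 1, Ccne2, and without epidermis replicate 4, dermis replicate 3 or dermis replicate 4 E2f1 was no longer called. Cdk1, Bub1 and Birc5 each lost their adjusted p in 6 of the 8 fits that left out 1 sample. Cdk1 and Bub1 kept it only without epidermis replicate 1 or dermis replicate 1, and Birc5 only without epidermis replicate 1 or dermis replicate 4. Top2a kept it in 3 of the 8, without epidermis replicate 1 or 2 or dermis replicate 1, while Mcm7 lost it without epidermis replicate 2 or dermis replicate 2 and Ccna2 without dermis replicate 2.

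The epithelia of both sites were compared to see whether UGE differs from an epithelium of another organ at the same age. Tyms was called higher and Kif11 lower in UGE, while 8.28% of all genes were called higher and 6.12% lower. By adjusted p alone 4 members were higher (17.0% of all genes), all of replication, and 3 were lower (12.2%), all of mitosis. The median difference was 0.28 over the replication members and -0.35 over the mitosis members, against -0.04 over all genes.

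The replication genes that were higher in UGE were 3 MCM genes and Tyms. Mcm6 ran from 11.76 to 12.19 in UGE, with a median of 11.88, and stood at 11.57, 11.52, 11.30 and 11.47 in epidermis. The groups did not overlap, and the difference was 0.48 ± 0.09 (limma adjusted p = 0.000468). Mcm7 differed by 0.52 ± 0.12 and Mcm2 by 0.66 ± 0.16, with overlap through epidermis replicate 1, which stood at 12.66 for Mcm7 and 11.29 for Mcm2. The 3 dimmer Mcm7 probe sets gave 0.37 ± 0.16, 0.26 ± 0.15 and 0.09 ± 0.21, and none passed. With the mean of its probe sets Mcm7 did not pass either. Second probe sets of Mcm2 (0.67 ± 0.13) and Mcm6 (0.59 ± 0.13) did pass. Mcm5 (0.43 ± 0.18), Mcm3 (0.28 ± 0.13) and Mcm4 (0.29 ± 0.14) did not pass, and Mcm2 did not pass without UGE replicates 2 and 3 or without epidermis replicate 2, 3 or 4. Tyms differed by 1.51 ± 0.29, with every UGE sample at 6.77 or above and every epidermis sample at 6.47 or below.

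The mitosis genes that were lower in UGE were Ube2c, Birc5 and Kif11. Ube2c stood at 11.35, 10.93, 10.63 and 10.56 in epidermis, above the UGE maximum of 10.38 (-0.79 ± 0.14, limma adjusted p = 0.000219). Birc5 ran from 9.56 to 9.91 in UGE and stood at 10.65, 10.28, 10.23 and 9.94 in epidermis (-0.58 ± 0.12, limma adjusted p = 0.000758). Kif11 stood at 8.29, 9.12, 9.14 and 9.17 in epidermis and ran from 6.57 to 8.43 in UGE, with a median of 7.67 (-1.47 ± 0.33, limma adjusted p = 0.00165). Without UGE replicates 2 and 3 Kif11 was called too, and 7 members were lower, with Ccne2, Rrm2, Ccna2 and Kif20a added. E2f1 differed by -0.02 ± 0.13 and Aurkb, the kinase of the chromosomal passenger complex, by -0.01 ± 0.16. By the methods' t-test no member passed in this comparison after adjustment, while 12 of the 31 had an unadjusted p under 0.05.

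UGM was compared with dermis in the same way. No member was called by limma, against 6.77% of all genes higher and 7.00% lower in UGM, and 1, Ccne2, had an unadjusted p under 0.05 with a change over 2-fold. By adjusted p alone none was higher (13.6% of all genes) and 9 were lower (14.9%), 2 of replication and 7 of mitosis. The median difference was -0.32 over the replication members and -0.56 over the mitosis members, against -0.07 over all genes. When these 2 tissues were fitted on their own, 16 members passed and Ccne2 was called lower in UGM. Without UGM replicate 2, 1 member was called, Tyms, higher in UGM.

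The mitosis members that were lower in UGM spanned cyclins, kinases and enzymes of anaphase. Ccna2 stood at 10.44, 10.47, 10.41, 10.32 and 10.47 in UGM and at 11.16, 11.48, 11.30 and 11.14 in dermis. The samples within each tissue lay close together, and the difference was -0.85 ± 0.12 (limma adjusted p = 1.67e-05). Birc5 (-0.79 ± 0.13), Ube2c (-0.82 ± 0.15), Kif20a (-0.71 ± 0.13), Aurka, the spindle pole kinase (-0.75 ± 0.15), Ccnb2, cyclin B2 (-0.56 ± 0.10) and Cdk1 (-0.58 ± 0.14) were lower as well. None of these 7 genes overlapped between the tissues, but members that did not pass, such as Cdc20 and Foxm1, did not overlap either. The share of all genes without overlap was not computed. Cdk1 no longer passed without UGM replicate 3, dermis replicate 2 or dermis replicate 3.

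Replication members were closer between the mesenchymes. Rrm1 (-0.44 ± 0.09) and Mcm3 (-0.61 ± 0.13) were lower in UGM, while Mcm2, Mcm4, Mcm5 and Mcm7 differed by between -0.04 and 0.06 and did not pass. Mcm3 stood at 10.58, 10.68, 10.60, 10.49 and 10.63 in UGM, all below the dermis minimum of 11.10. Ccne2 had the largest difference, -1.36 ± 0.46, and did not pass in the fit of all 4 tissues, where the spread of the 6 UGE samples enters.

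The interaction of site and compartment, (UGE minus UGM) minus (epidermis minus dermis), asks whether the step from mesenchyme to epithelium differs between the sites. No member was called by limma, against 7.53% of all genes above 0 and 5.41% below, while 11 members had an unadjusted p under 0.05, each above 0 and under 2-fold. By adjusted p alone 2 members lay above 0 (10.3% of all genes) and none below (6.99%). These were Mcm3, at 0.89 ± 0.18 (limma adjusted p = 0.00126), and Mcm6, at 0.68 ± 0.14 (limma adjusted p = 0.00104). Mcm3 was lower in epidermis than in dermis by the difference given above but differed by -0.16 ± 0.11 between UGE and UGM, and Mcm6 differed by 0.01 ± 0.10 there. The median interaction was 0.48 over the replication members and 0.21 over the mitosis members, against 0.04 over all genes. Bub1b, the BubR1 checkpoint protein, missed the threshold at 0.70 ± 0.18 (limma adjusted p = 0.0103). Without epidermis replicate 1, 6 members passed, Ccne1, Mcm2, Mcm3, Mcm6, Mcm7 and Ccna2, and Mcm3 was called.

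By the brightest probe sets, members that passed in none of these comparisons were Mcm4, Mcm5, Mki67, Aurkb, Plk1, Bub1b, Cdc20, Cenpe and Foxm1. Dimmer probe sets did pass for Mcm4 (UGE against UGM, -0.52 ± 0.12) and Mcm5 (epidermis against dermis, -0.86 ± 0.20). The same was true of Cdc20 (UGM against dermis, -0.62 ± 0.16) and Cenpe (UGE against epidermis, -1.77 ± 0.44). Plk1, the Polo kinase, had values between 8.99 and 9.71 among UGE samples and between 9.51 and 9.98 among UGM samples, while the epidermis spanned 9.38 to 10.11 and the dermis 10.04 to 10.23. Cdc20, the activator of the anaphase-promoting complex, spanned 11.45 to 12.24, 11.70 to 12.18, 11.87 to 12.29 and 12.28 to 12.44 in the same order. Foxm1, the factor that drives mitosis genes, spanned 7.61 to 8.16, 7.84 to 8.26, 8.14 to 8.41 and 8.30 to 8.72. For each of these 3 genes the mean was highest in dermis and lowest in UGE, and ranges of tissues next to each other in the order of means overlapped, except those of UGM and dermis for Plk1.

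Some epithelial samples stood apart from their group for part of the module. UGE replicates 2 and 3, the samples with the mesenchymal markers, lay below the other 4 UGE samples for 8 members (25.8%) and above them for 15 (48.4%), against 18.7% and 36.4% of all genes. The 8 lower members were Mki67, Cenpe, Ccne2, Bub1, Kif11, Pcna, Top2a and Cdk1. Ccne2 stood at 5.29 and 5.62 against 7.61 to 8.16, Cenpe, a kinetochore motor, at 7.18 and 6.90 against 8.98 to 9.49, and Bub1 at 7.99 and 7.72 against 9.43 to 9.53. The higher members included Mcm2, Mcm3, Mcm5, Mcm6 and Mcm7, with Mcm5 at 12.49 and 12.47 against 11.56 to 11.93. Second probe sets of Cenpe, Bub1 and Kif11 were also lower in these samples, at 5.89 and 6.32 against 7.58 to 8.73 for Cenpe. A further Kif11 probe set was not, at 7.38 and 6.48 against 6.17 to 6.79. A dimmer Top2a probe set was higher there, at 8.34 and 8.33 against 7.72 to 8.29. For Ccna2 the probe sets disagreed, since the brightest was higher there, at 10.28 and 10.33 against 9.88 to 10.12, and the other lower, at 9.58 and 9.41 against 9.96 to 10.33.

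Epidermis replicate 1 was low for some of the same members. It lay below the other 3 epidermis samples for 10 members (32.3%) and above them for 16 (51.6%), against 26.6% and 51.7% of all genes. The shares of members are near those of all genes, so these counts do not set the module apart. Mki67 stood at 11.50 against 12.42 to 12.46, Bub1 at 8.72 against 9.57 to 9.66, Cenpe at 8.54 against 9.41 to 9.58 and Kif11 at 8.29 against 9.12 to 9.17. These 4 and Top2a, 5 members in all, were the low ones in both sets of samples, and 13 were the high ones in both. The share of all genes low or high in both sets was not computed. The mesenchymal markers had a median of 10.64 in epidermis replicate 1 and of 9.78 to 10.88 in the other 3, so that they did not set this sample apart. The difference between the 3′ and 5′ Gapdh control probe sets, a sign of RNA quality, was 2.52 and 2.56 in UGE replicates 2 and 3, within the range of 2.16 to 2.79 in the other UGE samples. The same difference for Pcx did set these samples apart, at 1.63 and 1.90 against 1.17 to 1.58 in the other 4 UGE samples, and epidermis replicate 1 stood at 2.24 against 1.59 to 1.89 in the other epidermis samples. For Gapdh and Actb epidermis replicate 1 was instead the lowest of its group, at 2.21 and 1.90. The part of RNA quality in these differences between samples was not tested.

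**Figure D5:**
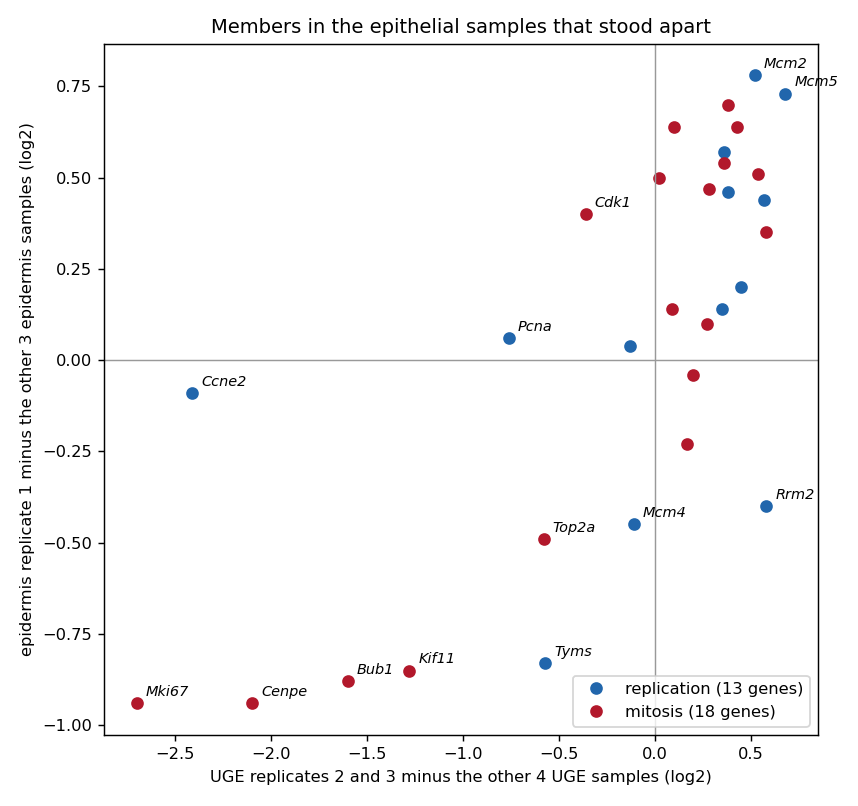
Each point is a member gene, blue for replication and red for mitosis; the horizontal axis gives the mean of UGE replicates 2 and 3 minus the mean of the other 4 UGE samples, and the vertical axis epidermis replicate 1 minus the mean of the other 3 epidermis samples, both in log2 units. Mki67, Cenpe, Bub1 and Kif11 lie at the lower left, with Mki67 at -2.70 and -0.94, Ccne2 is low in the UGE samples alone, and most other genes lie at the upper right.

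Other genes of the pathway were read in 3 lists. By adjusted p, 14.5% of all genes were higher and 16.0% lower in UGE than in UGM. The shares were 10.9% and 17.2% for epidermis against dermis, and 17.0% and 12.2% for UGE against epidermis. They were 13.6% and 14.9% for UGM against dermis, and 10.3% above 0 and 6.99% below for the interaction. Counts near these shares, such as 9 of 54 other mitosis genes lower in UGE than in UGM, do not set a list apart. Of 46 other replication genes, which load, fire and lengthen replication forks, 1 was higher and 2 were lower in UGE than in UGM by adjusted p, 16 were lower in epidermis than in dermis with none higher, 7 were higher and 2 lower in UGE than in epidermis, 6 were lower in UGM than in dermis with none higher, and 5 had an interaction above 0 with none below. The genes of this list called in skin were Cdc6, which loads the MCM helicase, and Gins2, a part of the active helicase. Cdc6 measured 8.42 ± 0.43 (SD, n = 4) in epidermis and 9.55 ± 0.15 (n = 4) in dermis, and Gins2 9.13 ± 0.46 and 10.27 ± 0.19. Both were also called in the interaction, Cdc6 at 1.43 ± 0.26 (SE, limma adjusted p = 0.000432) and Gins2 at 1.15 ± 0.26 (SE, limma adjusted p = 0.00287), with UGE and UGM means of 9.40 and 9.10 for Cdc6 and of 9.45 and 9.43 for Gins2. Tk1, thymidine kinase, was called lower in UGM than in dermis (-1.06 ± 0.14). The median differences of this list were -0.14, -0.53, 0.13, -0.21 and 0.37 in the order of the comparisons above.

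Of 54 other mitosis genes, 1 was higher and 9 were lower in UGE than in UGM, 18 were lower in epidermis than in dermis with none higher, 3 were higher and 9 lower in UGE than in epidermis, 15 were lower in UGM than in dermis with none higher, and 3 had an interaction above 0 with none below. The called genes were Spc25, of the kinetochore, lower in UGE than in UGM (-1.02 ± 0.15), Cdc25b, Pimreg and Sgo2a, lower in epidermis than in dermis (-1.16 ± 0.18, -1.27 ± 0.22 and -1.03 ± 0.15), and Ncapg and Tacc3, lower in UGM than in dermis (-1.49 ± 0.38 and -1.02 ± 0.12). In UGE against epidermis, Ttk (-1.38 ± 0.26), Ncapg (-1.77 ± 0.37), Hmmr (-1.25 ± 0.29) and Knl1 (-1.43 ± 0.34) were called lower. Their SDs were 0.71, 0.84, 0.72 and 0.93 in UGE, against 0.35, 0.48, 0.22 and 0.22 in epidermis. The differences of these genes without UGE replicates 2 and 3 were not read. Pttg1, securin, went against them and was called higher in UGE, at 13.14 ± 0.09 (SD, n = 6) against 12.05 ± 0.22 (n = 4), with UGM at 12.36 ± 0.12 and dermis at 12.15 ± 0.10. The medians of this list were -0.33, -0.50, -0.31, -0.44 and 0.13.

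Of 18 genes of E2F factors, pocket proteins and the DREAM complex, which set the timing of both classes, 1 was higher and 1 lower in UGE than in UGM, 2 were lower in epidermis than in dermis, and 3 were higher and 3 lower in UGM than in dermis. In UGE against epidermis 3 were higher and 6 lower, and 3 of these were called. E2f3, an activating E2F, measured 10.43 ± 0.09 (SD, n = 6) in UGE and 9.29 ± 0.29 (n = 4) in epidermis, a difference of 1.15 ± 0.12 (SE, limma adjusted p = 3.81e-07). E2f8, a repressing E2F, was lower in UGE at 9.37 ± 0.21 against 10.64 ± 0.09 (-1.27 ± 0.12 SE, limma adjusted p = 5.32e-08). Rb1, the retinoblastoma pocket protein, was lower at 8.25 ± 0.71 against 10.18 ± 0.47 (-1.93 ± 0.28 SE, limma adjusted p = 2.06e-05). The UGM and dermis means were 9.89 and 9.39 for E2f3, 9.58 and 10.52 for E2f8 and 8.68 and 9.38 for Rb1. No gene of this list passed in the interaction, and the medians were -0.24, -0.16, -0.06, -0.39 and 0.00.

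Other probe sets of the same genes did not always match the brightest one. Among 28 further probe sets with a mean over 7, of 19 members, 22 had the sign of the brightest one in UGE against UGM, 26 in epidermis against dermis, and 25 in each of the other comparisons. The opposed ones belonged to Cenpa, Foxm1, Mcm3, Mcm4, Mcm7, Rrm2 and Top2a. The brightest probe set of 6 members (Ccne1, Mcm4, Mcm5, Rrm2, Aurkb and Cdc20) carries the ending by which the maker marks probes that may bind unrelated transcripts, and their values are less certain for that reason.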

How the data were processed

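Total RNA of pooled tissue was hybridised to MOE430 2.0 arrays. The authors deposited 1 table of normalized probe set intensity values on a linear scale; the submitters' processing notes name GCOS 1.4 and the study's methods name PLIER, and which made the table is not stated in the sources used here. Of 45101 probe sets, 64 controls were dropped, and the 41549 that exceeded an intensity of 20 in any sample entered limma 3.58.1 (R 4.3.3) as log2 intensity, with Benjamini-Hochberg adjustment and no further normalization. Layers of 1 site were fitted alone, and comparisons between sites and the interaction in a fit of all 4 tissues. GEO's annotation gave 1 symbol for 34945 probe sets, several for 932 and none for 9160, and a gene was read by the brightest tested probe set with its symbol alone. Members, lists and tests were chosen with earlier results of these data known. All members were to be named, and of each other list up to 4 called genes of largest change per comparison with any called against the majority. The limma script was tested on simulated data. Some genes of the lists, Chaf1a, Flg, Sprr2a1, Fbn1, Hbb-bt and Ahsp among them, are not reported here. Neuronal, Schwann cell, smooth muscle, erythroid, melanocyte and epidermal differentiation markers were also read. Their medians ran, in UGE, UGM, epidermis and dermis, from 5.17 to 6.91, 10.36 to 11.33, 5.18 to 5.57 and 5.58 to 5.97 (neuronal), from 6.10 to 6.64, 7.30 to 7.85, 6.67 to 7.89 and 7.46 to 8.05 (Schwann cell), from 5.64 to 6.76, 9.46 to 10.03, 5.56 to 6.09 and 7.25 to 7.75 (smooth muscle), from 5.27 to 7.07, 7.18 to 8.01, 6.32 to 7.53 and 9.15 to 9.49 (erythroid), from 5.72 to 6.90, 5.99 to 6.48, 7.76 to 8.68 and 8.01 to 8.03 (melanocyte), and from 6.18 to 6.78, 5.33 to 5.61, 10.61 to 11.64 and 7.15 to 9.56 (epidermal differentiation). Skin samples of the same replicate number correlated weakly in their deviations from the group means (r = 0.343, 0.108, 0.264 and 0.168). Epidermis replicate 2 matched dermis replicate 3 best, and the other epidermis samples matched their own number. For UGE and UGM r ran from -0.406 to 0.648, and only replicate 1 matched its own number best. Whether equal numbers mark paired samples is not settled.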

Additional observations from a re-analysis of the deposited data

Results flagged for a closer look

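In 7 of 124 groups of a member in a tissue (5.6%), 1 sample lay far from the rest by Dixon's test at its 95% limit, and chance flags about 1 in 20 groups. Of these, 4 were epidermis replicate 1, low for Mki67 (11.50, the others 12.42 to 12.46), Bub1 (8.72, the others 9.57 to 9.66), Cenpe (8.54, the others 9.41 to 9.58) and Kif11 (8.29, the others 9.12 to 9.17). E2f1 was low in UGM replicate 1 at 7.78, against 8.05 to 8.13. Aurkb was low in dermis replicate 4 at 10.38, against 10.70 to 10.76. Foxm1 was low in UGE replicate 6 at 7.61, against 7.97 to 8.16. The step from mesenchyme to epithelium differed between the sites for Mcm3, with an interaction of 0.89 ± 0.18 (SE, limma adjusted p = 0.00126), and for Mcm6, with 0.68 ± 0.14 (SE, limma adjusted p = 0.00104).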

How the results depend on the processing

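Of 42 member differences that passed the adjusted p of 0.01, 15 passed under each alternative that was read by adjusted p. These leave out the test against 2-fold itself (limma's treat) and the setting with no minimum change. Of 921 values under these alternatives, 797 kept their direction and passed, 121 kept their direction and did not pass and 3 reversed. The reversals were Cenpa in UGE against UGM, at 0.56 with the most variable probe set and 0.01 with the mean of the probe sets, and Top2a in epidermis against dermis, at 0.02 with that mean. Counts by adjusted p that changed by over 1.5 times were as follows. By the methods' t-test they were 5 for UGE and UGM (9 in limma), 8 for epidermis and dermis (15) and 0 for UGE and epidermis (7). At an adjusted p under 0.05 they were 25 for epidermis and dermis, 13 for UGE and epidermis, 16 for UGM and dermis and 6 for the interaction. For UGM and dermis fitted alone the count was 16, and the interaction had 0 with the most variable probe set and 4 with the mean of the probe sets. With the replicate number as a block, the count for UGE and UGM was 4, and the number called in UGE and epidermis was 1. For skin the block gave 17 by adjusted p and 3 called, and it changed no other count by over 1.5 times. Whether equal numbers mark paired samples is not settled at either site.

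The few calls past 2-fold were less stable. In UGE and UGM (1 called), 0 were called by the t-test, with 50 added before log2 or without UGM replicate 2 and dermis replicate 1 (15, 16 and 15 members then had an unadjusted p under 0.05), and 2 at an adjusted p under 0.05, in the fit of all tissues or without UGE replicates 2 and 3. In epidermis and dermis (3 called) and in UGE and epidermis (2 called), 1 was called with the mean of the probe sets, and in UGE and epidermis 0 by the t-test. In UGM and dermis (0 called), 1 was called by the t-test, with 50 added, at an adjusted p under 0.05 and fitted alone, and 2 with the most variable probe set. A test against 2-fold itself (limma's treat) called 0 members in each comparison, and with no minimum change 9, 15, 7, 9 and 2 members were called. Leaving out 1 sample at a time, the number called ran from 0 to 1 (UGE and UGM), 1 to 4 (epidermis and dermis), 2 to 3 (UGE and epidermis), 0 to 1 (UGM and dermis) and 0 to 1 (interaction), and the count by adjusted p from 5 to 8, 9 to 24, 6 to 9, 8 to 12 and 2 to 6. The mean of the probe sets moved the replication level to -0.22 in UGE and to 0.04 in UGM. The order of the tissues, tried after seeing the data with quantile normalization, with the mean of the probe sets and without the samples that stood apart, kept dermis highest for 26 to 29 members. With quantile normalization dermis was highest for 8 of 13 replication members and UGM for 4. With the mean of the probe sets dermis was highest for 12 of 13 replication and 16 of 18 mitosis members. Signals of Tyms, at 5.13 to 8.12, were the dimmest and limit what can be read from that gene. The causes of these changes were not tested.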
